A study of Mus musculus with 2 samples.

Results

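The 6 genes of the GATA family, Gata1 to Gata6, were described on a pair of promoter tiling arrays hybridised with chromatin immunoprecipitated for Tcf3 from mouse embryonic stem cells. Members were all non-control spots whose gene name on the array was 1 of these symbols, alone or joined to another by a hyphen. This gave 246 of the 474380 spots on the 2 arrays, and 6 of the 16953 named genes for which neighbouring probes could be averaged. The cells were of the E14 line, a mouse embryonic stem cell line, grown without feeder cells, with no treatment or allele named, and were cross-linked with formaldehyde before chromatin was sheared to fragments of 500 bp on average. Cy5 marked the amplified immunoprecipitate and Cy3 the input DNA. The labels list several antibodies without saying which went to the arrays, so Tcf3 is taken from the sample titles. No control immunoprecipitation was analysed here, the arrays share 0 probes, and each gene was measured once, so no value has a replicate and none was tested between samples. The labels do not say whether 1 immunoprecipitate was split between the arrays. A promoter array measures DNA and not RNA, so the cell type could not be checked against expressed markers.

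GATA factors are zinc finger proteins that bind DNA sites with the core GATA. Gata1, Gata2 and Gata3 are known mainly from blood and, for Gata2 and Gata3, from trophoblast, whereas Gata4, Gata5 and Gata6 are known from endoderm, heart and gut. Tcf3, whose gene is Tcf7l1, is an HMG-box protein of the Tcf/Lef family, the DNA-binding end of the Wnt pathway. It acts mostly as a repressor together with corepressors of the Groucho family, and in mouse embryonic stem cells it is known to restrain genes of the pluripotent state.

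Gata2 was the single GATA gene called with ratios computed from the deposited processed intensities. Values are log2 ratios of the processed Cy5 over the processed Cy3 intensity, centred on the median of the array, so that 0 is the typical probe and 1 a doubling over it. Each probe was averaged with the closest probe to its left and to its right, if within 1000 bp, and the mean ± SD of such a set gives the spread over the 2 to 3 probes of the set, which are different pieces of DNA and not replicates. A probe was called when its set mean and the single probes in it were both far above the scatter seen below the median, which for a set of 3 probes needed a mean of 1.47 on array 1 and 1.69 on array 2. When every spot was used, 1 of 6 GATA genes was called against 12.9% of all genes (22.1% on array 1 and 3.58% on array 2). With spots measured in both channels it was 1 of 6 against 13.6% (16.2% and 10.9%), and with the trend on GC content also subtracted it was 1 of 6 against 13.3% (19% and 7.27%). Further members were called in 2 alternatives that called far more genes: 4 of 6 after a normexp background correction, against 49.7% of all genes, and 3 of 6 after a trend on intensity was subtracted, against 43.9%. The share of GATA genes was thus 1 in 6 under each of the first 3 ways, near that of all genes, and Gata2 lies on array 1, where more genes were called.

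The probes differed between members in how often they were measured at all. Where the Cy5 signal did not rise above background, the scanner software wrote a surrogate intensity in its place, and the ratio of such a spot follows its input signal alone. Surrogates made up 81 of the 246 GATA probes (32.9%), against 30.7% of all probes on array 1 and 51.7% on array 2. Gata1 had 21 of 31 probes resting on surrogates (67.7%), Gata4 20 of 42 (47.6%) and Gata6 17 of 42 (40.5%), all 3 on array 2. On array 1, Gata3 had 12 of 45 (26.7%), Gata5 7 of 43 (16.3%) and Gata2 4 of 43 (9.30%). Across the surrogate probes of each member the correlation of the ratio with the log2 input signal was -0.96 or more negative, which is a property of how these values are made. The 81 surrogate values ran from -1.27 to 1.54, and the highest of them had an input intensity of 69.0. Of the 40 GATA probes at 1 or more, 12 were surrogates, and of the 5 at 2 or more none was.

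**Figure D1:**
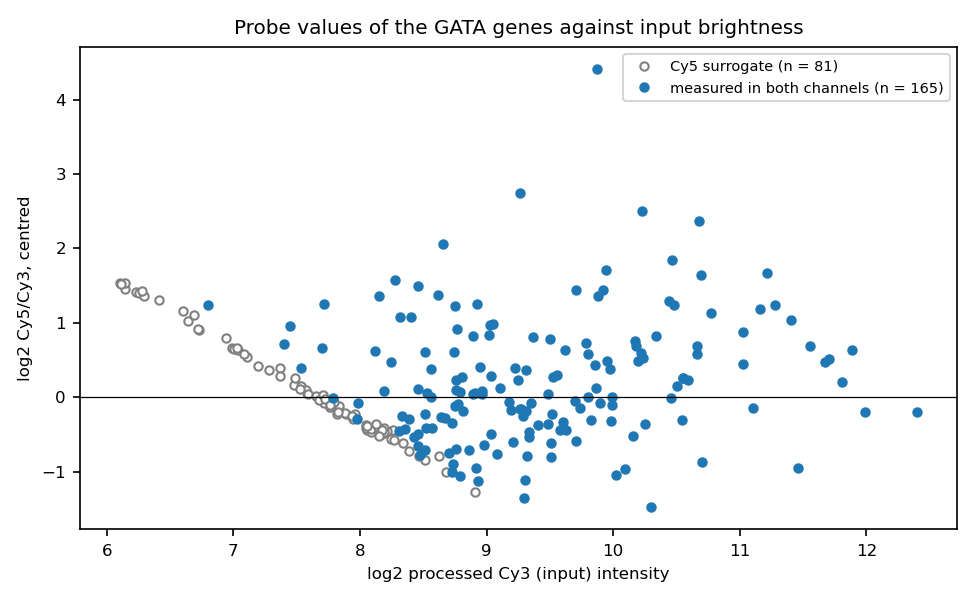
Each point is 1 probe of the 6 GATA genes, with the log2 processed Cy3 (input) intensity on the x axis and the centred log2 Cy5 over Cy3 ratio on the y axis. The 81 open points are surrogate spots and form a falling line that ends at 1.54 at the dimmest inputs, whereas the 165 filled points, measured in both channels, run from -1.48 to 4.41.

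Gata2 encodes the GATA factor of blood stem and progenitor cells, which also acts in trophoblast giant cells. Its 43 probes lie on chromosome 6 between 88268555 and 88276364, in array coordinates of a build that the sources used here do not give. Their median was 0.21, the lowest value -1.36 and the highest 4.41, and 27 of 43 were above 0. Both called probes follow, in their entirety or by their last 30 bases, because the call rests on them; coordinates are those of the array.
Gata2, higher called probe (chr6:88274633-88274662, + strand): cccaagacacagtagtggaccATGGAGGTG
Gata2, lower called probe (chr6:88274861-88274905, + strand): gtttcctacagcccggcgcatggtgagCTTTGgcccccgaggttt
The capitals of the first mark the start of the Gata2 reading frame, known as its translation start. Those of the second mark CTTTG, the core of the sequence that Tcf/Lef proteins bind.

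The higher called probe stood at 4.41, a 21.3-fold excess over the typical probe, with a software error of 0.44 (log2) for the spot. Its processed intensities were 937 in Cy3 and 16886 in Cy5. On array 1, 20 of 237186 probes reached this value, itself included. The lower called probe, 243 bp further downstream from start to start, stood at 2.37 (5.15-fold, software error 0.29). These probes are centred 883 and 1126 bp downstream of the nearer RefSeq start of Gata2. The excess had sharp edges, since the next probe upstream, centred 774.5 bp from the start, was at 0.09 and the next one downstream, at 1256 bp, was at 0.26. Both lie closer to the called probes than the average fragment length of 500 bp.

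The highest set mean of Gata2 joined the values 4.41, 2.37 and 0.26 and was 2.35 ± 2.08 (SD over 3 probes, 0 surrogates). Its SD was close to its mean because 1 probe carried most of it. Of 8518 genes whose highest set lay on array 1, 232 had a higher mean, and among the 1177 genes of array 1 with a like number of probes (within 5) Gata2 stood at percentile 95.7. Without surrogates and after new centring the mean was 2.39, at percentile 95.2 of 609 like genes. With the GC trend subtracted, the highest set moved by 1 probe and had a mean of 1.84 ± 1.90 (percentile 92.4 of 608), and the called probes were at 3.88 and 1.55. Gata2 was called in all 13 ways of processing that were run, with a highest set mean between 1.84 and 2.80. Those ways called from 1160 to 8426 of 16953 genes.

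Both annotated starts of Gata2 carried a high probe. The starts were placed on the array by exact matches between probe sequences and RefSeq promoter sequences of GRCm38.p6, and they lie 4773 bp apart both on the array and in that build. The sequences of the probes across them follow, the first cut at 15 transcribed bases, with the transcribed bases in capitals and in array coordinates.
Gata2, upstream start (chr6:88268970-88268998, + strand): cactggtgaccgccGCGGCCGCGCTGACT
Gata2, downstream start (chr6:88273727-88273771, + strand): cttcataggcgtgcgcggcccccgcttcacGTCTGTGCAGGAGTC
The probe across the upstream start was at 2.74 (6.69-fold, software error 0.35), between neighbours at 0.44 and 0.97. That across the downstream start was at 2.50 (5.66-fold, software error 0.31), between neighbours at 0.52 and -0.15. Neither was called in the main processing. In the alternatives the upstream one was called with measured spots, where its set mean was 1.43, before dye normalization, with the intensity trend subtracted, with the looser set probability of 0.01 and after normexp, and the downstream one after normexp.

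GC content was high in both start probes, at 80% and 66.7% of their bases, against a median of 40.4% over the array. After subtraction of the GC trend they stood at 0.89 and 1.39. Among the 413 probes of array 1 that span a RefSeq start and have a GC content of 60% or more, the median was 1.21 and 19.9% were at 2 or more. Among all 12089 probes of array 1 with that GC content, the median was 0.98 and 15.5% were at 2 or more. The value of the upstream start probe was reached by 37 of the 413 (8.96%) and by 5.23% of the 12089, and that of the downstream one by 48 of the 413 (11.6%) and by 7.48% of the 12089. Over the 43 Gata2 probes the correlation of the ratio with GC content was 0.55, given as a description, since probes share an array and neighbours share fragments.

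The 250 bases upstream of each start show this composition; capitals mark the bases that array probes cover, so that the lower-case bases were not measured.
Gata2, upstream start (GRCm38.p6 chr6:88193641-88193890, + strand): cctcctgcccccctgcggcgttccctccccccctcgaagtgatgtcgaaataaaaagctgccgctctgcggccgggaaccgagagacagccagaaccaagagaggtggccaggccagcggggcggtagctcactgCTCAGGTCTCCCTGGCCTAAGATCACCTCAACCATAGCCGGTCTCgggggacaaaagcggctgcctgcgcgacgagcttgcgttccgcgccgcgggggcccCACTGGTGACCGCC
Gata2, downstream start (GRCm38.p6 chr6:88198414-88198663, + strand): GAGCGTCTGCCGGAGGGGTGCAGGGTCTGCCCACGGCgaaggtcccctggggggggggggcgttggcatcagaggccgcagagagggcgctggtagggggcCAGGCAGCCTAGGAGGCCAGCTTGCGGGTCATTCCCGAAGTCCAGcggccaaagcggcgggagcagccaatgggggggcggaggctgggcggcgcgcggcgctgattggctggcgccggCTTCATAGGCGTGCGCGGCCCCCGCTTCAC
Their GC contents were 67.2% and 74%, against a median of 52.4% over the 32851 promoter sequences of the table (each 250 bases before to 50 after the start). Neither CTTTGAA nor CTTTGAT, the Tcf/Lef motif as searched on both strands, is in these 250 bases, while 7.48% of all promoter sequences hold it. The shorter CTTTG was in 1 of the pair, that of the downstream start, and in 48.6% of all promoter sequences.

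Elsewhere in Gata2, the next values were 1.84 at 88270075, 1.71 at 88275315 and 1.57 at 88269319. Each had neighbours that stayed below 1. The probes between the 2 starts held the lowest value of the gene, -1.36, and all 4 of its surrogates.

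**Figure D2:**
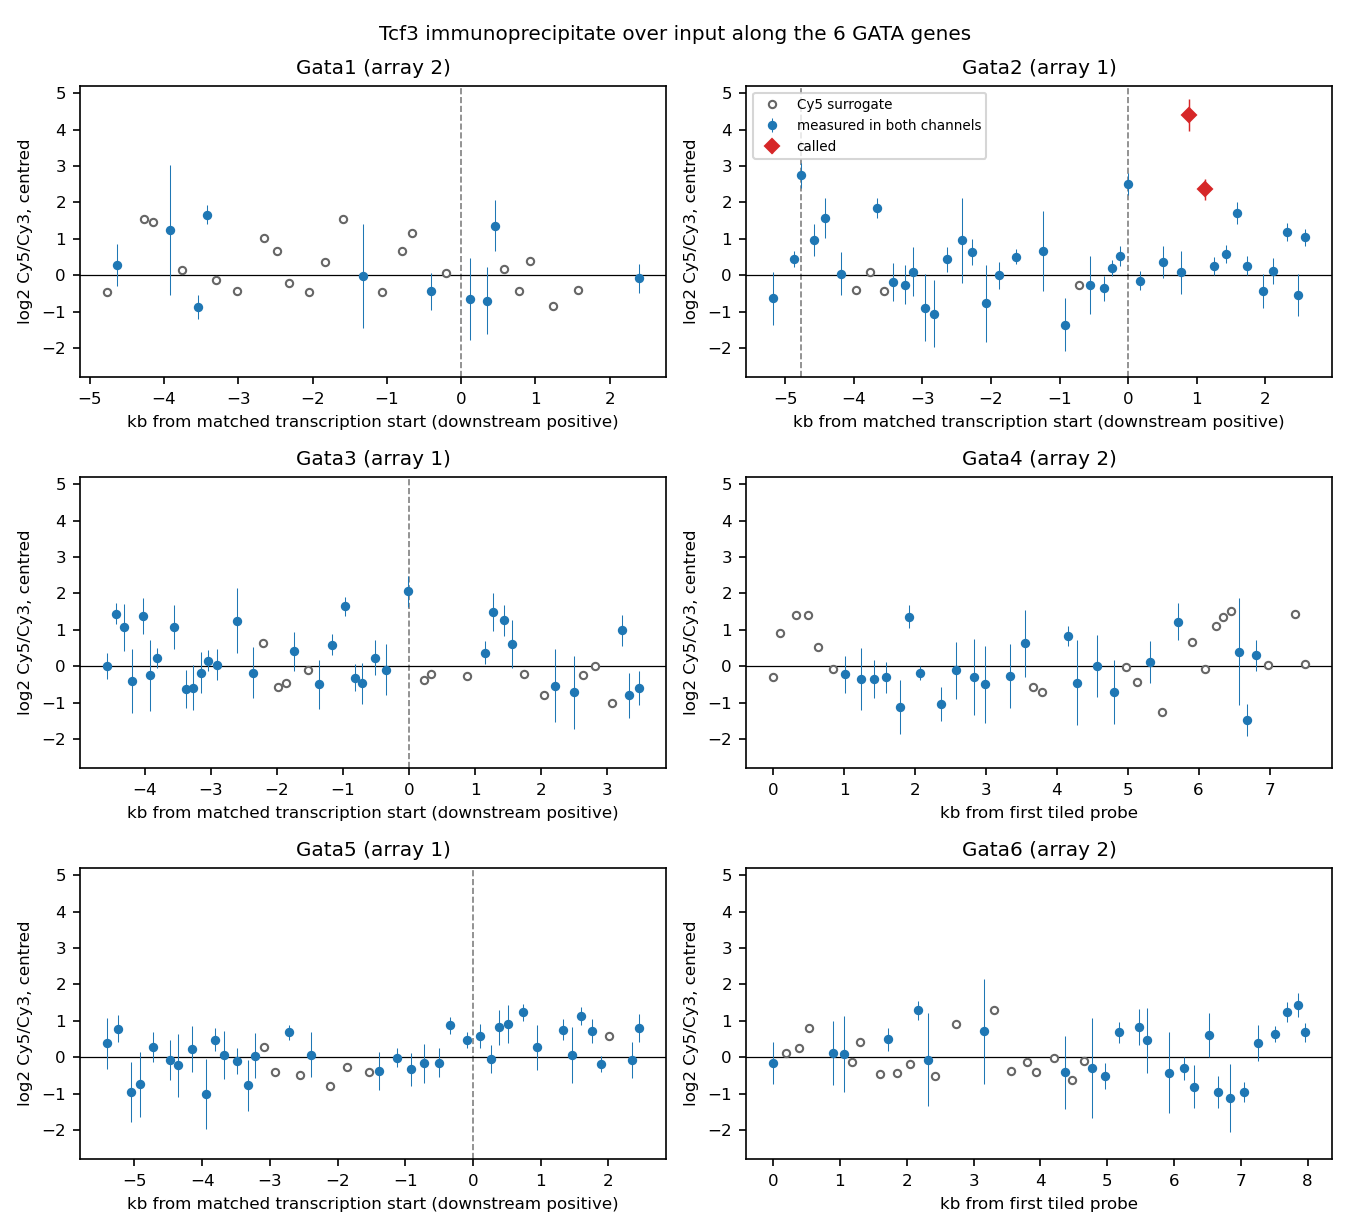
Each panel plots the centred log2 Cy5 over Cy3 ratio (y axis) of a GATA gene's probes against distance in kb (x axis), from the matched RefSeq start for Gata1, Gata2 (from the downstream one), Gata3 and Gata5 and from the first tiled probe for Gata4 and Gata6; dashed lines are starts, bars are the scanner software's error of the spot, open points are surrogates, shown without it, and diamonds are called probes. Both diamonds, at 4.41 and 2.37, are in Gata2, and the probes on the starts of Gata2 (2.74 and 2.50) and Gata3 (2.06) stand alone above their neighbours; a distant Gata4 probe is not drawn.

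Gata3, the GATA factor of T lymphocytes that also acts in trophoblast and kidney, was not called. Its 45 probes lie on chromosome 2 between 9814246 and 9822358, with a median of -0.12, a lowest value of -1.01 and a highest of 2.06. The highest value was on the probe across the start, on the minus strand at 9817758 of the array. This probe is shown with its transcribed bases in capitals, in array coordinates, followed by the RefSeq sequence upstream of the start, in which capitals mark the bases this probe covers.
Gata3, start (chr2:9817751-9817795, - strand): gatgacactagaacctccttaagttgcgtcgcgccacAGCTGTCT
Gata3, upstream of the start (GRCm38.p6 chr2:9878601-9878850, - strand): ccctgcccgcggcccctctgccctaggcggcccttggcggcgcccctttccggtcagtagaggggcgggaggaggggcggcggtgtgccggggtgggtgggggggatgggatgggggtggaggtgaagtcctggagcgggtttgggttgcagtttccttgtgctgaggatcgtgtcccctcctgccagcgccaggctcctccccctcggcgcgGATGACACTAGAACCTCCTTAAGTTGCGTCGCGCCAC
The probe stood at 2.06 (4.16-fold, software error 0.42) between neighbours at -0.38 and -0.09. Its GC content was 53.3%, lower than in the Gata2 start probes although the window upstream has 70%, and it stood at 1.71 after the GC trend was subtracted. Of the 340 start-spanning probes of array 1 with a GC content from 50% to under 60%, 10 (2.94%) were at 2 or more and the median was 0.68. The 250 bases shown hold neither CTTTGAA nor CTTTGAT on either strand, and no CTTTG.

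The other high probes of Gata3 were also scattered. They were at 1.64, centred 963 bp upstream of the start, at 1.49, centred 1273 bp downstream, and at 1.44, centred 4440 bp upstream. The highest set joined 1.49, 1.26 and 0.61 downstream of the start and had a mean of 1.12 ± 0.46 (SD over 3 probes, 0 surrogates), below the 1.47 that a call needed. That put Gata3 at percentile 31.4 of the 829 genes of array 1 with a like number of probes. With measured spots the mean was 1.16, at percentile 45.1 of 1356 like genes. With the GC trend subtracted the highest set shifted and had a mean of 1.10, at percentile 59.0 of 1355.

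**Figure D3:**
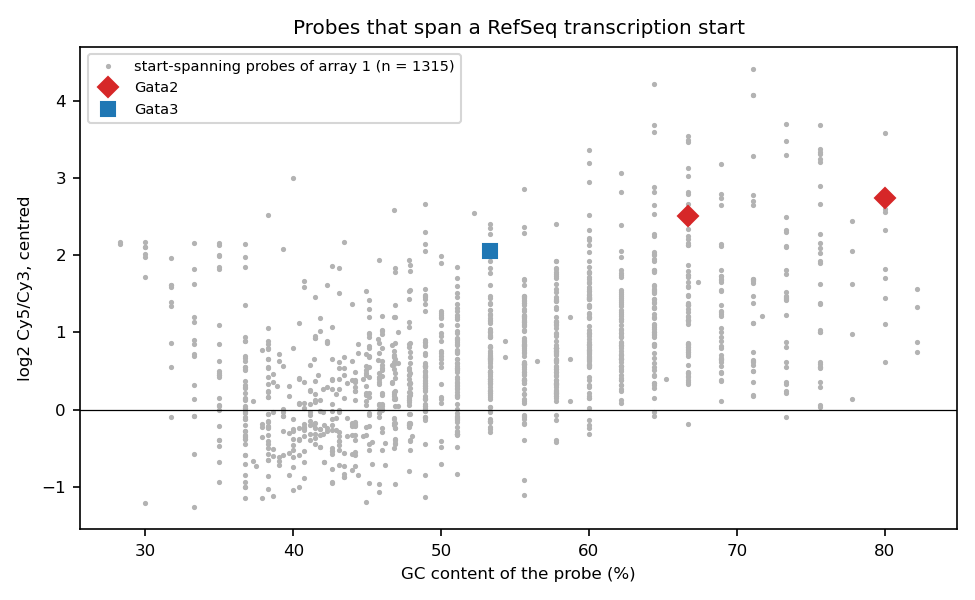
The probes of array 1 that span a RefSeq transcription start (grey, n = 1315) are plotted by their GC content in percent (x axis) and centred log2 Cy5 over Cy3 ratio (y axis), with the 2 Gata2 probes as diamonds and the Gata3 probe as a square. The grey points have a median of 0.18 under 50% GC and of 1.21 at 60% or more; the Gata2 probes lie at 80% and 66.7% GC and the Gata3 probe at 53.3% and 2.06, near the top of the points of its GC content.

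The start-spanning probes of array 1 had a median of 0.63, and 112 of 1315 (8.52%) were at 2 or more. All 3 start-spanning probes of the GATA genes were among those 112. No probe spans the starts of Gata1 and Gata5, and Gata4 and Gata6 were not among the promoter sequences used. Single high probes were common outside the family as well. Of the 5221 measured probes of array 1 at 2 or more, 49.3% had a neighbour at 1 or more, and of the 5 such GATA probes 2 did, both of them the called probes of Gata2.

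Gata1, the X-linked regulator of red cell and megakaryocyte development, was not called, and most of it was not measured. Its 31 probes lie on chromosome X between 6398637 and 6405854 and had a median of 0.06, from -0.88 to 1.67. The highest value was a measured probe, centred 3421 bp upstream of the start, at 1.67 (3.18-fold, software error 0.26), but its neighbours were at -0.12 and -0.88. The next values, 1.54 at both probes, were surrogates with input intensities of 69.0 and 70.9 and software errors of 2.53 and 2.46.

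The highest set of Gata1 joined 1.24, 1.46 and 1.54 on average 4112 bp upstream of the start. Its mean was 1.41 ± 0.16 (SD over 3 probes, 2 of them surrogates). This was the second highest among the members and the narrowest SD, and its probes have a mean GC content of 30%. With the 10 measured spots alone the highest set mean was 0.94 ± 0.68 (2 probes), at percentile 57.7 of like genes, against 70.7 with all spots. The probe nearest upstream of the start, from 239 to 180 bp before it, was a surrogate at 0.06.

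Gata4, a regulator of extraembryonic endoderm and of the heart, was not called either. Of its 42 probes on chromosome 14, between 58062824 and 58114592, all but 1 lie in 1 tiled block and the remaining one far from it. The median was -0.07, the lowest value -1.48 and the highest 1.52. Its 4 highest probes, from 1.40 to 1.52, were all surrogates with software errors of 2.35 to 2.53. The highest set, at 1.10, 1.36 and 1.52, had a mean of 1.33 ± 0.21 (SD over 3 probes, 3 of them surrogates), and without surrogates the highest became 0.77 ± 0.57. Its percentile among like genes went from 56.4 to 33.1.

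Gata5, known from heart and gut endoderm, was well measured and was not called with all spots. Its 43 probes on chromosome 2, between 180833110 and 180841023, ran from -1.01 to 1.23 with a median of 0.06, and 2 were at 1 or more. The highest set, centred about 547 bp downstream of the start, held 1.23, 0.91 and 0.82 and had a mean of 0.99 ± 0.22 (SD over 3 probes, 0 surrogates), which is the lowest highest set among the members. It was at percentile 22.0 of 1177 like genes. A probe from 112 to 68 bp before the start was at 0.48. From 250 to 1000 bp downstream of the start the median of the 5 Gata5 probes was 0.82, and from 1000 to 2500 bp that of 8 probes was 0.65. Over all genes with a matched start, on both arrays and not matched for GC content, the medians were -0.05 and -0.08. The 5 probes had GC contents from 44.9% to 64.4% and ran from -0.48 to 0.80 with the GC trend subtracted. Such departures were not confined to Gata5. In the range farthest upstream, the median was 1.07 in Gata3 (5 probes) and 0.87 in Gata1 (4 probes). Those of Gata1 were surrogates except for a measured one at 0.28. The median there was 0.08 in Gata5 and 0.06 over all genes. None of these differences was tested.

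Gata6, which with Gata4 directs primitive endoderm, lies on chromosome 18, between 11253676 and 11261692. Its 42 probes had a median of -0.05, from -1.12 to 1.44. The highest set was at the right end of the tiled block, where the last 3 probes were at 1.24, 1.44 and 0.69, all measured. The mean was 1.12 ± 0.39 (SD over 3 probes), at percentile 41.1 of 1396 like genes, and 1.30 after surrogates were left out, at percentile 71.6 of 1474. Those 3 probes have a mean GC content of 64.4%. After the GC trend was subtracted the highest set lay elsewhere in the block and had a mean of 0.85 ± 0.49.

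The order of the members by their highest set mean was Gata2, Gata1, Gata4, Gata6, Gata3 and Gata5 with all spots. Without surrogates it was Gata2, Gata6, Gata3, Gata5, Gata1 and Gata4. No step between neighbours in either order exceeded the larger SD of the pair. For the step below Gata2 with all spots these were 0.93 and 2.08. That SD is a spread over different pieces of DNA and not an error of the mean, so it cannot decide the order. With no replicate the places, that of Gata2 included, were not tested. The median over the 6 genes was 1.22 with all spots, 1.09 without surrogates and 0.79 once the GC trend was taken off, against 1.15, 0.98 and 0.85 over all genes. All genes are an unlike background, since members have 31 to 45 probes and the median gene has 28. With all spots the medians of genes with a like number of probes lay between 1.13 (for Gata1) and 1.38 (for Gata2 and Gata5). Gata1, Gata2 and Gata4 were above theirs, and Gata3, Gata5 and Gata6 below. This split changed with the processing. Without surrogates Gata1, Gata2 and Gata6 were above the middle of their like genes, and Gata3, Gata4 and Gata5 below. After subtraction of the GC trend Gata1, Gata2 and Gata3 were above it, and Gata4, Gata5 and Gata6 below. The correlation between adjacent probes was 0.20 in Gata2 (42 pairs) and lay between 0.03 in Gata3 and 0.32 in Gata6, against 0.29 over array 1 and 0.35 over array 2.

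**Figure D4:**
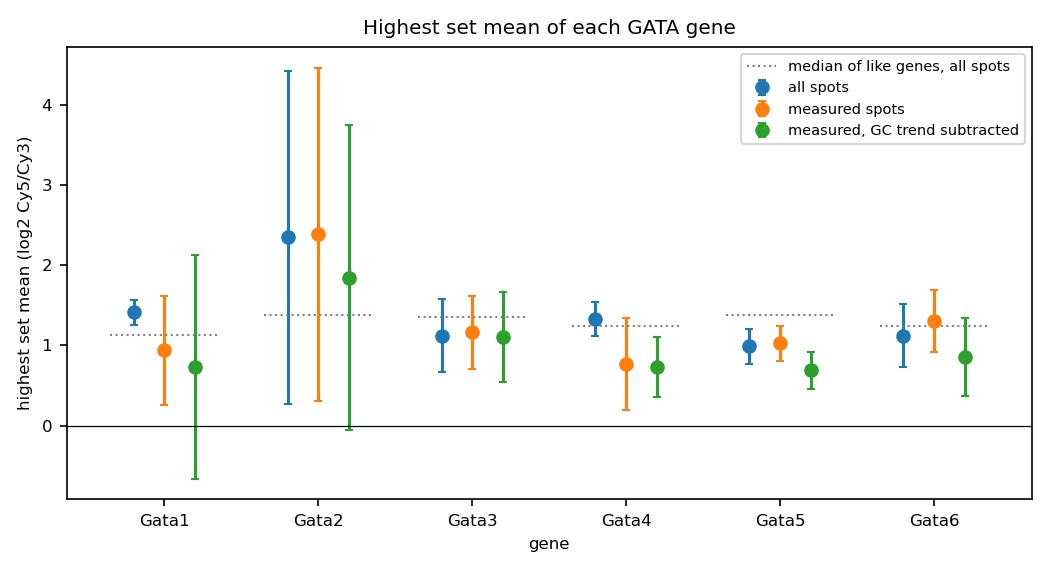
For each GATA gene the highest set mean of the log2 Cy5 over Cy3 ratio is shown as a point with the SD over the 2 to 3 probes of the set as a bar, from all spots, without surrogates and after removal of the GC trend; dotted lines give the median of genes of the same array with a like number of probes. Gata2 stands highest in each way, from 1.84 to 2.39, with bars that reach down to the other genes, and Gata1 and Gata4 drop from 1.41 and 1.33 to 0.94 and 0.77 once surrogates are left out.

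The sequence that Tcf/Lef proteins bind was rare over all probes and in those of the GATA genes. Its searched form, CTTTGAA or CTTTGAT on either strand, was in 3 of 246 probes (1.22%) against 2.79% of all probes. These were 1 probe of Gata3 and 2 of Gata6, all surrogates between -0.79 and -0.37, and none was in Gata2. Its core CTTTG, which lies within both, was in 40 probes (16.3%) against 17.2%, among them 9 each in Gata2, Gata3 and Gata4. Those 40 had a median of -0.10 and the other GATA probes one of 0.05. The GATA motif AGATAA or TGATAA was in 18 probes (7.32%, against 7.22%), of which 6 lay in Gata6, 5 in Gata5 and 3 in Gata1; the highest was at 1.24. The Oct4 octamer ATGCAAA was in 2 probes (all probes 1.28%), the Sox motif CATTGT in 7 (2.85%, all probes 3.45%) and CGGCGGC in 0 (all probes 0.15%). A match is a description of the letters and no binding site, and the probes leave gaps between them, with a median spacing of 178 bp on array 1. The shares were not matched for GC content, which had a median of 43.6% in GATA probes and 40.4% on each array.

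The 4 lists of related genes were read against the same shares of all genes, 12.9% called with all spots, 13.6% with measured spots and 13.3% once the GC trend was subtracted. The other genes with a GATA-type zinc finger had 0 of 5 called (of 9 in the list, 5 were found on the arrays by name) under each of the 3 ways, and a median highest set mean of 0.56 with all spots. Highest among them were Gatad1 at 1.58 ± 1.45 (SD over 2 probes), Trps1, a transcriptional repressor, at 1.46 from 3 surrogates, and Mta3, a subunit of the NuRD complex, at 0.56. Of the cofactors and blood partners (11 of 12 found) 0 were called with all or with measured spots and 1 of 11 with the GC trend subtracted, with a median of 0.95. That one was Tal1, the basic helix-loop-helix partner of Gata1 and Gata2 in blood, at 1.20 with all spots and 1.55 with the GC trend subtracted. The highest with all spots were Zfpm2, the Fog2 cofactor of Gata4, at 1.70 (2 of 3 spots surrogates), Runx1 at 1.43 (3 of 3) and Spi1, which opposes Gata1 in blood, at 1.27.

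Among 14 primitive endoderm genes, the class that Gata4 and Gata6 direct, 1 was called with or without surrogates (all genes 12.9% and 13.6%) and 2 with the GC trend subtracted (all genes 13.3%), counts near those shares. The first was Lamc1, a laminin chain of the basement membrane, at 2.07 ± 0.51, which was at 0.95 and not called once the GC trend was subtracted. The other pair was Sox17 at 2.10 and Lama1 at 1.63 in that way, against 1.60 (2 of 3 spots surrogates) and 1.32 with all spots. Dab2 was at 1.49 from 2 surrogates, and the median of the 14 was 1.34. Of the trophoblast genes, a lineage in which Gata2 and Gata3 act, 9 of 11 had a set, and 0 were called with all spots, and 1 each in the other ways, namely Cdx2 at 1.78 with measured spots and Tfap2c at 1.68 with the GC trend subtracted. So short a list gives no more than these counts, beside the 12.9%, 13.6% and 13.3% of all genes. Ascl2 was at 1.54 and the median was 1.17.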

How the data were processed

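Feature Extraction 9.1.1.1 made the deposited spot values, per the file headers. For each channel the authors deposited a processed intensity, from which background was subtracted and to which a linear dye normalization was applied, with a surrogate in place of signals not above background. The deposited log10 ratio and its log10 error, per the file headers, were used for an alternative and for the software errors, the latter converted to log2.

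Ratios were computed as log2 of processed Cy5 over Cy3, centred on the median of non-control spots, leaving out spots marked non-uniform (9 on array 1 and 18 on array 2). The scatter without enrichment was taken from values below 0 (normal SD 0.72 on array 1 and 0.78 on array 2) and, for set means, from set means of the same size. Calling a probe took an upper-tail normal probability below 0.001 for the set mean, together with one below 0.001 for the probe and below 0.1 for a neighbour, or with 2 of the set's probes below 0.005. These probabilities are a calling rule and not a test, and a gene was called when it named a called probe. The GC trend was the median ratio per 2% bin of GC content of measured spots. Spot intensities carry no read depth, and precision is limited by there being 1 spot per probe on 2 arrays.

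The members and the 4 gene lists were chosen with earlier results of these data known. The named genes are the 6 members and, of each list, the called members and the 3 highest. The caller was tested on simulated data only, with short runs of raised probes planted in independent normal noise. That noise had no surrogates, no GC trend and no correlation between neighbours. The simulation therefore cannot show how the caller behaves under these features of the arrays. Python 3.11.15, numpy 2.4.6, pandas 2.3.3, R 4.3.3 and limma 3.58.1 (normexp) were used.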

Additional observations from a re-analysis of the deposited data

How the results depend on the processing

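The number of called GATA genes was 1, Gata2, in 10 of 12 alternatives. It was 4 with the normexp background correction and an offset of 50 (Gata2, Gata3, Gata5 and Gata6), where 8426 of 16953 genes were called in all, and 3 with a trend on intensity subtracted (Gata2, Gata3 and Gata6), where 7442 genes were called. In the 10 alternatives that called Gata2 alone, the number of all genes called also varied. It ran from 1160 of 16953, with the scatter taken from all probes, to 3599 of 16945 before dye normalization. With the deposited log10 ratio it was 1351 of 16953. Across all ways, highest set means lay between 0.43 and 1.41 for Gata1, 1.00 and 1.48 for Gata3, 0.40 and 1.33 for Gata4, 0.69 and 1.34 for Gata5 and 0.85 and 1.88 for Gata6. Gata1 and Gata4 were called in none of the 13. Their highest set means with the deposited log10 ratio were 0.43 and 0.40, against 1.41 and 1.33 in the main processing. Those of the other members were the same in both. Leaving out a sample was not possible, since each gene is on 1 array. No paired analysis was possible because the arrays carry different probes and form 1 group. Values of surrogate spots are bounds set by the input, and those of single probes rest on 1 spot.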
